A study of Mus musculus with 2 samples.

Results

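The colony-stimulating factor (CSF) genes are 10 mouse genes, 7 for receptors (Csf1r, Csf2ra, Csf2rb, Csf2rb2, Csf3r, Flt3 and Kit) and 3 for ligands (Csf1, Csf2 and Csf3). They were found by their symbols among the 20034 genes listed with the counts, and 8 of the 10 have a row there. Kit, the receptor for stem cell factor, and Csf2, which encodes GM-CSF, have no row, so no level was given for either. The cells were c-Myc-induced macrophages (iMac), mouse cells of wild type genotype that, per the series title, were made from fibroblasts with c-Myc alone. They were detached with EDTA and run on the DNBelab C4 droplet system, and a cDNA library and an oligo library are labelled. Both labels describe the same cells, and the 1 matrix analysed here names no library for its barcodes, so it was treated as 1 sample with no control group and no replicate. The labels used here give no culture medium or added factor.

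CSF1, made by many stromal cells and also by some macrophages, binds CSF1R, a receptor tyrosine kinase on which most tissue macrophages depend for survival and growth. GM-CSF binds a receptor of a specific alpha chain (Csf2ra) and a beta chain (Csf2rb) that mouse cells share with the IL-3 and IL-5 receptors, whereas the mouse paralogue encoded by Csf2rb2 serves IL-3 only. G-CSF, the product of Csf3, acts through CSF3R on the neutrophil lineage, and FLT3 and KIT are kinases of early blood progenitors.

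The matrix holds 6837 barcodes, all distinct, and 6751 had 500 genes or more and no more than 15% of mitochondrial counts and were kept. Their depth ran from 1001 to 192369 counts with a median of 17178. All 10 macrophage markers searched were at 10 counts per 1000000 (CPM) or more, where 33.2% of all genes were. Tyrobp at 5699.7 CPM and Lyz2 at 3578 CPM were among them, as the label of macrophage implies. That level was not reached by macrophage markers alone. It was also met by 3 of the 4 monocyte markers with a row, led by F13a1 at 40.7 CPM. Of 5 osteoclast markers 1 met it, Nfatc1 at 13.2 CPM, and so did all 10 cell cycle genes. Of the 9 neutrophil markers only Prtn3 passed that level (96.3 CPM), with Elane at 0.437 CPM and no row for Mpo. Mast cell markers summed to 0.0686 CPM and fibroblast markers to 2.54 CPM, with no row for Col1a1, Col1a2 or Col3a1. Intervals below are 95% intervals of counting error only, and cells of 1 sample are not replicates, so no test was made.

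The pair Csf2rb and Csf2rb2 is nearly a duplication, and its sequence is shown first because it limits how their counts can be read. On GRCm38, Csf2rb lies at chr15:78325752-78353847 on the plus strand and Csf2rb2 at chr15:78282507-78305721 on the minus strand, 20030 bases apart. Their longest transcripts in GENCODE M21 were identical at 93.3% of aligned bases, 95.2% in the coding sequence and 90.3% after the stop codon. The 90-base coding window with the fewest differences had 0, and the one with the most had 16, which are in capitals.
Csf2rb, coding bases 662 to 751: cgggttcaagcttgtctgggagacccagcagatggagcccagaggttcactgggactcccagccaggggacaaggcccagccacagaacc
Csf2rb2, coding bases 665 to 754: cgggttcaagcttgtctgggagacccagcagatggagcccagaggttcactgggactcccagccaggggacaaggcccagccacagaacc
Csf2rb, coding bases 308 to 397: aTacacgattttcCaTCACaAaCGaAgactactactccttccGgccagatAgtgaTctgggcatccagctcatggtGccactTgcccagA
Csf2rb2, coding bases 311 to 400: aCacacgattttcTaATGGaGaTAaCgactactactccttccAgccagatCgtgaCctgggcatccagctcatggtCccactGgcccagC
Of the start positions along the Csf2rb transcript, 6.96% open a run of 100 bases that Csf2rb2 also holds, and 18.4% open such a run of 50 bases. How the authors' counting treated reads that match both genes is not given in the sources used here, so the split of counts between the pair is uncertain.

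Csf1r, the CSF1 receptor, had the highest level of the 8 genes. It reached 145.6 CPM (143.8 to 147.5), from 23353 counts, and 72.3% of cells had at least 1 count (71.2% to 73.4%). The most in 1 cell was 52 counts. Csf2rb followed with 82.7 CPM (81.3 to 84.1) and a count in 59.3% of cells. Csf2ra stood at 27.3 CPM (26.5 to 28.1), in 34.4% of cells. These 3 were the members at 10 CPM or more, a level that 33.2% of all genes reached. Both chains of the GM-CSF receptor were therefore counted in a library that lists no Csf2.

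The remaining receptors were low. Csf2rb2 had 4.54 CPM (4.22 to 4.88) and Csf3r 3.21 CPM (2.93 to 3.50), with a count in 8.74% and 6.64% of cells. Flt3 had 22 counts in 20 cells, a level of 0.137 CPM (0.0860 to 0.208). For Flt3, reads of the antisense gene Gm26597 cannot be told apart where the counting ignored strand, and whether it did is not given in the sources used here. The same holds for the 3′ end of Csf1r, which overlaps Hmgxb3 on the other strand.

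Among the ligands, Csf1 was counted 449 times, at 2.80 CPM (2.55 to 3.07) and in 4.77% of cells (4.27% to 5.31%). Its most in 1 cell was 9 counts. Csf3 was counted 2 times, both in the same cell. The median over all genes with a row was 2.03 CPM, so Csf1 lay just above the middle of the listed genes.

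Divided by exon length, the order of levels was Csf1r, Csf2rb, Csf2ra, Csf2rb2, Csf3r, Csf1, Flt3 and Csf3. Csf1r had 25.2 CPM per kb of exon (24.9 to 25.6), Csf2rb 11.4 (11.2 to 11.6) and Csf2ra 9.51 (9.23 to 9.80). These lengths join all annotated exons, 7277 bases for Csf2rb, whose longest transcript has 4900, and whether counts grow with length in this library was not tested. Csf2rb2 at 0.958 CPM per kb (0.889 to 1.03) and Csf3r at 0.888 (0.813 to 0.968) had overlapping intervals, so their order was not resolved. Csf1 followed with 0.530 CPM per kb (0.482 to 0.582). Flt3 at 0.0222 (0.0139 to 0.0336) and Csf3 at 0.00883 CPM per kb (0.00107 to 0.0319) overlapped as well. The plot of levels shows these values on both scales.

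**Figure D1:**
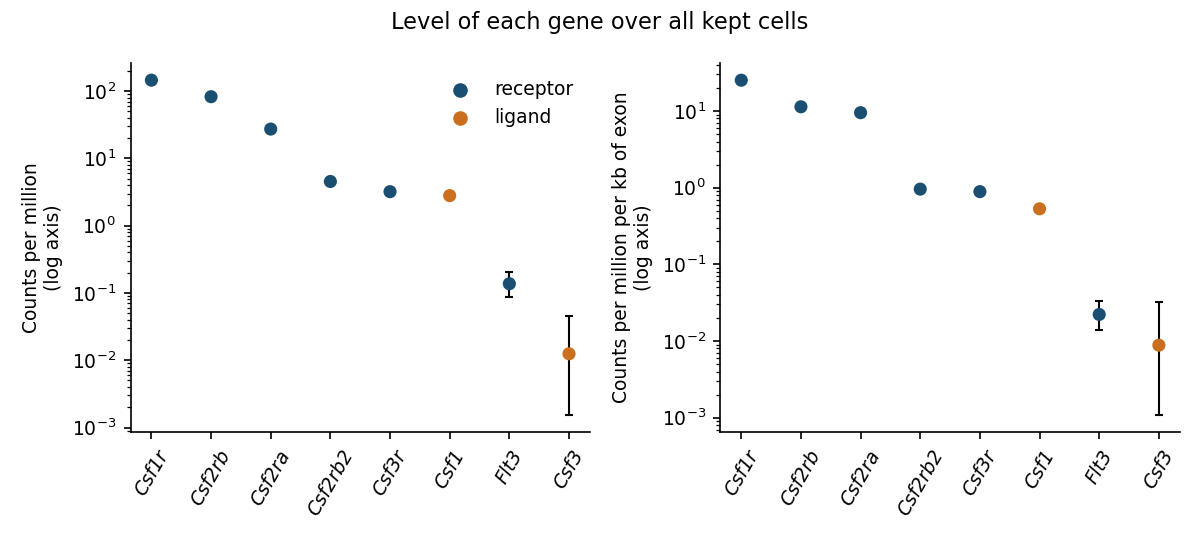
Level of the 8 genes with a row over all kept cells, as counts per 1000000, CPM (left) and per kb of exon (right), both on log axes, with receptors in blue and ligands in orange. Points are pooled levels and bars 95% Poisson intervals, mostly smaller than the point. Csf1r, Csf2rb and Csf2ra stand above 10 CPM, and Flt3 and Csf3 below 1 CPM.

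Upstream sequence is shown for Csf2ra, Csf2rb2 and the ligand Csf1, because the transcription factor PU.1 (Spi1), which binds GAGGAA cores, is a known regulator of macrophage receptor genes. RefSeq sequences of GRCm38.p6 held a promoter for 7 of the 10 genes, and Csf1r, Csf2rb and Csf3 had no entry. Each line gives the 180 bases before the RefSeq start, with GAGGAA or its reverse complement TTCCTC in capitals.
Csf2ra, chr19:61228419-61228598, minus strand: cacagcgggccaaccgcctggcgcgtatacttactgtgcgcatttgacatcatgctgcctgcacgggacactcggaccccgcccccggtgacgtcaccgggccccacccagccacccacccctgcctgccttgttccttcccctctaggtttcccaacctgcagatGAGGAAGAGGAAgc
Csf2rb2, chr15:78305722-78305901, minus strand: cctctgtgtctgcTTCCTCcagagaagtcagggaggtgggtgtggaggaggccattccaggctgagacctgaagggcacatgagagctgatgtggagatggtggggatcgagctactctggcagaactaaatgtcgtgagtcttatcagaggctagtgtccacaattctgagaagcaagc
Csf1, chr3:107760470-107760649, minus strand: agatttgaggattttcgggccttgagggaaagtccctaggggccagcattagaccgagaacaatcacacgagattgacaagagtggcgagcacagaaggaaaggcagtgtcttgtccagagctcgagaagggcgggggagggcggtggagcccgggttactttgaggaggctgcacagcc
Csf2ra held 2 matches, 14 and 8 bases before its start, where the GENCODE first exon begins. Csf2rb2 held 1 match, 167 bases before its start, and Csf1 held none in this window. Csf3r, not printed here, held 1 match, 86 bases before its RefSeq start but inside the GENCODE gene, which begins further upstream. Also not printed, Flt3 and Csf2 held no match in 250 bases. Kit held 1, at 223 or 227 bases before its start by RefSeq entry. Of 32851 RefSeq promoters, 23.3% hold a match in the 250 bases before the start, so a match is common.

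Detection rose steeply with depth while the level of Csf1r changed little. With the cells parted into quintiles by total counts, median depths were 1911, 7474, 17176, 31009 and 54282 counts. The share of cells with a Csf1r count was 22.8%, 56.7%, 86.7%, 95.6% and 99.7% from the shallowest to the deepest quintile. The Csf1r level over the same quintiles was 135.6, 139.7, 148.3, 144.4 and 146.6 CPM. In the deepest quintile 1347 of 1351 cells had a Csf1r count, so nearly every well-covered cell held Csf1r transcripts. Csf2rb went from 12.5% to 95.2% of cells, with its level at 65.7 CPM (56.6 to 75.8) in the shallowest quintile and 83.8 CPM (81.9 to 85.9) in the deepest. Csf2ra went from 5.85% to 69.8% of cells, Csf2rb2 from 0.593% to 20.7% and Csf3r from 1.11% to 14.4%.

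Csf1 behaved less evenly. Its share of cells over the quintiles was 0.593%, 1.41%, 4.67%, 4.59% and 12.6%, and its level was 2.81, 2.13, 3.47, 2.05 and 3.08 CPM. The level in the fourth quintile (1.65 to 2.53 CPM) was below those on both sides of it (2.75 to 4.31 and 2.71 to 3.49). One common level in all cells would have given 8.40% of cells with a Csf1 count in the fourth quintile and 15.4% in the deepest. The plot of detection by depth shows the measured shares under these expectations for most points.

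**Figure D2:**
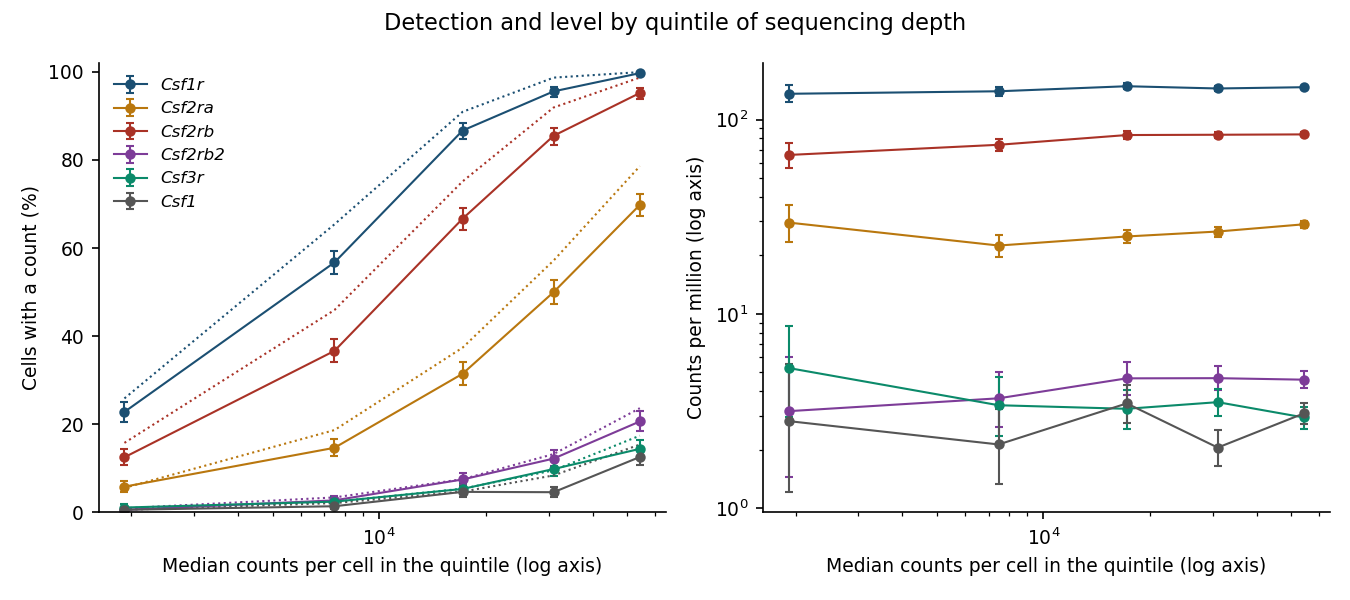
Share of cells with a count (left) and pooled CPM (right, log axis) for 6 genes in quintiles of depth, against the median counts per cell (log axis). Bars are 95% intervals, and dotted lines are the share that 1 common level in all cells would give. Csf1r rises from 22.8% to 99.7% of cells at a nearly level CPM.

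To compare cells at 1 depth, each was thinned to 10000 counts, which kept 4312 cells and left out 2439 shallower ones. A Csf1r count was then found in 73.2% of cells (71.8% to 74.5%), against 77.2% at a common level. The variance of Csf1r counts over their mean (Fano factor, 1 for counting noise alone) was 1.27. For Csf2rb the share was 51.1% against 56.2%, with a Fano factor of 1.30, and for Csf2ra 22.0% against 23.3%, with 1.14. Csf3r was found in 3.13% of thinned cells, close to the 3.17% of a common level, with a Fano factor of 1.04. Csf1 was found in 2.23% against 2.52%, and its Fano factor of 1.36 was above those of the 5 receptors in this draw. It came from 110 counts, with up to 5 in 1 cell, so its rank beside the receptors rests on few cells. Without thinning, 19.0% of all kept cells had no count of Csf1r, Csf2ra, Csf2rb or Csf3r, against 10.8% of thinned cells and 0 of the 1351 deepest. No cluster of cells lacked these receptors, so the share that free RNA in the droplets could give was not measured.

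Most cells with Csf1 also had a Csf1r count, as did most cells without Csf1. In thinned cells Csf1 and Csf1r were both counted in 74 cells (1.72%, 1.35% to 2.15%), and Csf1 without Csf1r in 22. A Csf1r count was found in 77.1% of the 96 cells with Csf1 (67.4% to 85.1%) and in 73.1% of the 4216 cells without it (71.7% to 74.4%), which overlap. The Csf1r level was 1.19 times that of the other cells (1.02 to 1.39) in this draw. Its log2 of 0.25 was 0.045 in another draw of the same cells, so the size depended on the draw. Among the deepest quintile, all 170 cells with Csf1 also had Csf1r, and so did 1177 of the 1181 without Csf1. Their Csf1r levels were 144.4 and 147.0 CPM. In the third quintile the shares were apart, with Csf1r in 96.8% of 63 cells with Csf1 (89.0% to 99.6%) and in 86.2% of the rest (84.2% to 88.0%). In the 3 remaining quintiles the intervals overlapped. Without thinning Csf1r counts per cell were 2.04 times higher in cells with Csf1, but cells with 1 Csf1 count had a median depth of 40186 counts and cells with none 16160.

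The chains of the GM-CSF receptor were counted together in 496 thinned cells (11.5%). Csf2rb was found in 52.3% of cells with Csf2ra (49.1% to 55.5%) and in 50.8% of those without (49.1% to 52.5%). The ratio of Csf2rb levels was 1.02 (0.943 to 1.11). A difference in Csf2rb between cells with and without its partner chain was not resolved at this depth, within an interval that reaches 1.11. Within quintiles of depth it had no single direction. In the shallowest quintile the Csf2rb level with Csf2ra was 0.262 times that without (0.0536 to 0.779). In the third, Csf2rb was counted in 72.2% of cells with Csf2ra (67.7% to 76.4%) and 64.1% of those without (60.9% to 67.2%). In the deepest quintile both chains were counted in 66.8% of cells (64.3% to 69.4%), and 902 of those 903 cells had Csf1r as well. There, 28.4% of cells had Csf2rb without Csf2ra and 2.96% the reverse.

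Csf2rb was somewhat higher in cells with Csf1r. Thinned cells with Csf1r had a Csf2rb level 1.15 times that of cells without (1.07 to 1.24). The median ratio over other genes was not computed for this split, so a general shift between these cells was not measured. On the log2 scale this was 0.20, and it ran from 0.015 in cells thinned to 1900 counts to 0.25 at 20000. Over cells with 0, 1, 2 and 3 or more Csf1r counts, Csf2rb was at 74.4, 81.2, 91.0 and 86.7 CPM. Csf2ra stood at 24.3, 26.4, 25.7 and 30.3 CPM in those cells, and Csf2rb2 at 3.81, 3.71, 4.29 and 5.90 CPM with overlapping intervals. Of thinned cells 39.5% had a count of exactly 1 of Csf1r, Csf2ra, Csf2rb and Csf3r, 39.3% had 2, 10.1% had 3 and 0.232% had all 4. In the deepest quintile 59.5% had 3 and 10.7% had all 4.

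The cells were parted into 8 clusters without using these genes or the listed pathway and marker genes. Clusters are called by number, from 969 cells in cluster 1 to 688 in cluster 8. Cluster 3 was led by Ms4a7 and Folr2, genes of mature macrophages, and cluster 1 by Ung, Snhg3, Ccr2, Cdc6 and Ly6c2, of which Ccr2 and Ly6c2 mark monocytes and Cdc6 acts in DNA replication. The 4 monocyte markers with a row summed to 135.9 CPM in cluster 7, 119.4 CPM in cluster 1 and 91.9 CPM in cluster 3. The 5 neutrophil markers with a row summed to 160.1, 140.2 and 27.8 CPM there (101.8 CPM over all kept cells, of which Prtn3 gave 96.3), and their part in the receptor levels was not tested. Cluster 2 held shallow cells with a median of 1701 counts. Csf1r was highest in cluster 7 (184.7 CPM, 177.1 to 192.6) and cluster 3 (183.6 CPM, 178.1 to 189.2), which overlap. It was lowest in cluster 2 (97.1 CPM, 84.2 to 111.4), and the other 5 clusters lay between 116.6 and 149.0 CPM.

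Csf2rb and Csf2ra were distributed in other ways. Csf2rb was highest in cluster 7 at 118.0 CPM (111.9 to 124.4), was at 71.7 CPM (68.2 to 75.2) in cluster 3 and lowest in cluster 2 at 48.1 CPM (39.1 to 58.5). Csf2ra was highest in clusters 8 (34.1 CPM, 31.9 to 36.4) and 3 (33.8 CPM, 31.5 to 36.3), and in cluster 7 it had its lowest value, 21.5 CPM (19.0 to 24.3). That interval overlapped those of clusters 2 (17.4 to 31.1), 4 (23.6 to 26.8), 5 (19.8 to 25.35) and 6 (20.6 to 25.3). Which cluster was lowest for Csf2ra was therefore not resolved. Cluster 7, led by Camk1d, was thus high for Csf1r and Csf2rb and among the low clusters for Csf2ra. Cluster 3 was high for Csf1r and Csf2ra and not for Csf2rb. Csf1 ran from 1.65 CPM (1.09 to 2.40) in cluster 6 to 4.37 CPM (3.27 to 5.73) in cluster 7, beside 0.961 CPM from 2 counts in cluster 2. Csf3r ran from 1.89 CPM in cluster 6 (1.29 to 2.68) to 3.95 CPM in cluster 7 (2.90 to 5.26), beside 9 counts in cluster 2.

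Set against all other cells, with 1 CPM added to each level, clusters shifted as wholes. The median log2 ratio over genes at 10 CPM or more was -0.39 in cluster 5, -0.32 in cluster 6, -0.15 in cluster 3, -0.10 in cluster 7, 0.11 in cluster 2 and 0.23 in cluster 8. Csf1r had a log2 ratio of 0.40 in cluster 3 and 0.37 in cluster 7, above those medians, and Csf2rb 0.56 in cluster 7. In cluster 3 the log2 ratio of Csf2rb was -0.24, close to the median of that cluster, and in clusters 5 and 6 Csf1r (-0.34 and -0.26) was also close to it. Csf2ra in cluster 8 (0.38) was above the median there, and Csf1r (0.04) was below it. In cluster 7 Csf2ra had -0.35.

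At least 1.5-fold, 0 of the 3 members at 10 CPM or more were higher in any cluster, and 2 were lower in cluster 2 alone. These were Csf2rb, with a log2 ratio of -0.78, and Csf1r, with -0.59 and thus just past the limit. Neither passed it for the closest cluster at resolution 1.0 (-0.29 and -0.063), and Csf1r did not with 10 CPM added (-0.55) or at resolution 0.3 (-0.58). Across genes at that level, 0.24%, 4.78%, 7.29%, 2.49%, 0.376%, 0.526%, 2.54% and 20.4% were that much higher in clusters 1 to 8. The shares that much lower were 3.4%, 5.05%, 15.8%, 0.916%, 37%, 28.7%, 11.9% and 1.11%. Cluster 2 is the shallow one, with 202 counts of Csf1r and 100 of Csf2rb, and the part of depth in its low values was not tested.

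**Figure D3:**
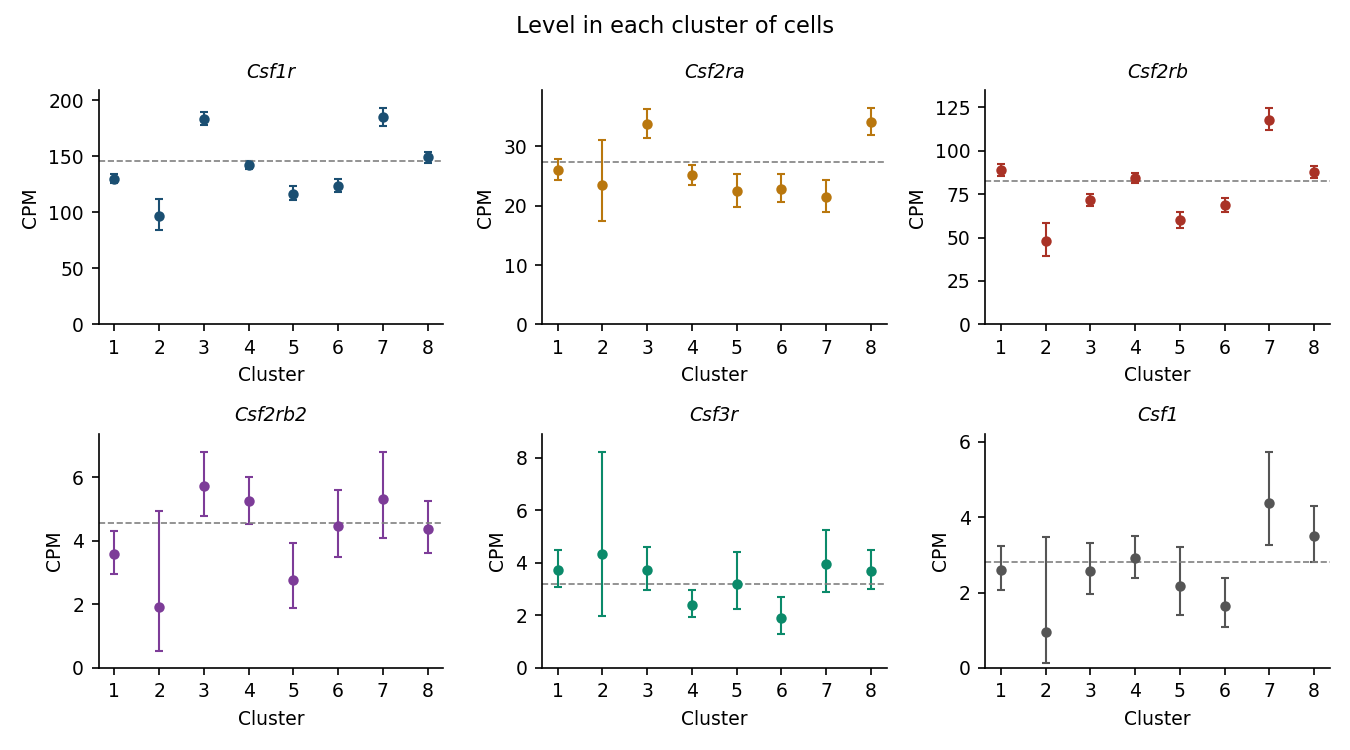
Pooled level (CPM, axes from 0) of 6 genes in each of the 8 clusters. Points carry 95% Poisson intervals and the dashed line is the level over all kept cells. Csf1r is highest in clusters 3 and 7, Csf2rb in cluster 7 and Csf2ra in clusters 3 and 8.

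Over the 8 clusters, which share 1 library, the genes whose log2 levels followed a member most closely were named by Pearson's r among 6655 genes. For Csf1r they were Atg13 (r = 0.984), Esyt1 (0.973) and Vipas39 (0.972). For Csf2ra they were Pik3ap1 (0.968), Myo1e (0.957) and Ly86 (0.944), and for Csf2rb Prkcsh (0.973), Cyp51 (0.950) and Prr12 (0.946). With 8 points, 37 genes had r over 0.9 with Csf1r, 45 with Csf2ra and 31 with Csf2rb.

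Thinned cells were also split by whether a single other gene was counted, and with Ms4a7 and with Prtn3 the ratios of Csf2rb and Csf1r lay on opposite sides of 1. Ms4a7, a gene of mature macrophages, was counted in 400 thinned cells. There Csf1r was at 188.0 CPM against 143.5 CPM in the 3912 cells without it, a ratio of 1.31 (1.21 to 1.41). Csf2ra was at 37.0 against 25.4 CPM (ratio 1.46, 1.22 to 1.73) and Csf2rb2 at 7.50 against 3.96 CPM (ratio 1.89, 1.24 to 2.81). Within quintiles of depth the Csf2rb2 ratio was 1.22 (0.850 to 1.72) in the second deepest and 1.14 (0.898 to 1.44) in the deepest, and its interval was clear of 1 in 1 of 5. Csf2rb was lower, at 61.5 against 84.7 CPM (ratio 0.726, 0.635 to 0.827). That fall was not found in cells thinned to 5000 counts (log2 ratio 0.06), and within quintiles of depth Csf2rb was lower in 4 of 5. Csf1r and Csf2ra were higher with Ms4a7 in 5 of 5 quintiles.

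Prtn3, a granule protease of granulocyte and monocyte precursors, gave the opposite order. In the 1710 thinned cells with Prtn3, Csf2rb was at 95.2 CPM against 74.3 CPM in the rest (ratio 1.28, 1.20 to 1.37). It was higher in each quintile of depth, by ratios from 1.29 to 1.54, and its interval was clear of 1 in 4 of them. Csf1r was at 140.8 against 152.1 CPM (ratio 0.926, 0.880 to 0.974), lower in 3 of 5 quintiles, and another draw gave a log2 ratio of 0.01. Csf2ra was at 24.8 against 27.6 CPM with an interval that reached 1 (0.796 to 1.02), and was lower in 5 of 5 quintiles. Csf1 was at 3.57 CPM with Prtn3 and 1.88 CPM without (ratio 1.89, 1.28 to 2.82), but higher in only 3 of 5 quintiles. Its ratios there ran from 0.697 to 1.33, with the interval clear of 1 in 1 of 5.

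Ly6c2, a monocyte marker, was counted in 608 thinned cells. There Csf2rb was at 104.6 against 78.9 CPM (ratio 1.33, 1.21 to 1.44), higher in 4 of 5 quintiles, whereas the Csf1r ratio was 0.938 (0.871 to 1.01). The Csf1 ratio with Ly6c2 was 0.677 (0.327 to 1.26), beside 1.89 (1.28 to 2.82) with Prtn3, a size that no quintile of depth reached. With Mrc1, the macrophage mannose receptor (1269 cells), Csf1r was at 169.0 against 138.7 CPM (ratio 1.22, 1.16 to 1.28), higher in 5 of 5 quintiles. The Csf2rb ratio there was 0.963 (0.895 to 1.04). With Cx3cr1, a chemokine receptor of monocytes and microglia (2086 cells), all 3 were higher, Csf1r by 1.14, Csf2ra by 1.17 and Csf2rb by 1.20 times.

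With Mki67, a gene of dividing cells (2034 cells), the ratios were 1.05 for Csf1r (0.995 to 1.10), 1.003 for Csf2ra (0.891 to 1.13) and 1.16 for Csf2rb (1.08 to 1.24). With 1 CPM added, their log2 ratios were 0.064, 0.004 and 0.21, beside a median of 0.11 over genes at 10 CPM or more. Csf1 was 1.68 times higher in cells with Mki67 (1.13 to 2.52). It was higher in 5 of 5 quintiles, but its interval was clear of 1 in 1 of them, and the ratio was 1.04 (0.646 to 1.71) in the second deepest. With Myc (1233 cells), the factor named in the series title, the ratios were 1.04 for Csf1r (0.986 to 1.10), 0.995 for Csf2ra (0.872 to 1.13) and 1.11 for Csf2rb (1.03 to 1.19). Their log2 ratios were 0.058, -0.008 and 0.14, beside a median of 0.050 over genes at 10 CPM or more.

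In this draw at 10000 counts, 0 of the 3 receptors at 10 CPM or more reached 1.5-fold in these 7 splits. Csf2ra with Ms4a7 passed it in another draw (log2 ratio 0.61), at 5000 counts (0.65) and at 1900 counts (0.74). At 1900 counts Csf1r with Ms4a7 (0.60) and, downwards, Csf2ra with Ly6c2 (-0.82) passed it too. At 10000 counts, the shares of genes past 1.5-fold, higher and lower, were 7.95% and 6.09% with Ms4a7, 0.406% and 2.67% with Prtn3, and 0.496% and 2.9% with Ly6c2. They were 3.64% and 0.255% with Mrc1, 3.83% and 0.195% with Mki67, 0.15% and 0.105% with Myc, and 0.0301% in each direction with Cx3cr1. The median log2 ratio over these genes was -0.06 with Ms4a7, -0.004 with Prtn3, -0.009 with Ly6c2, 0.06 with Mrc1 and 0.05 with Cx3cr1.

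**Figure D4:**
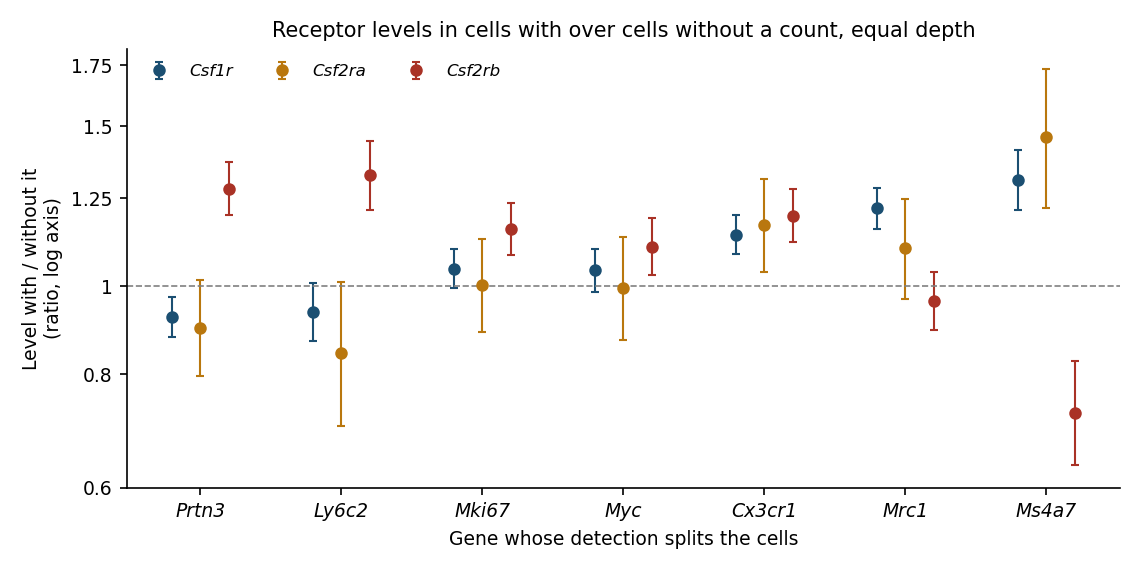
Ratio of the level in thinned cells with a count of the gene named below over cells without one (log axis), for Csf1r, Csf2ra and Csf2rb, with exact 95% intervals. The dashed line marks no difference. Csf2rb is above 1 with Prtn3 and Ly6c2 and below 1 with Ms4a7, where Csf1r and Csf2ra are above 1.

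The same thinned cells were also grouped by receptor count, which describes the same pairs of genes and adds no separate evidence. The median shift over other genes was not computed for these groups. Over thinned cells with 0, 1, 2 and 3 or more Csf1r counts (1156, 1375, 933 and 848 cells), Mrc1 was at 42.9, 51.8, 61.0 and 86.2 CPM. Ms4a7 was at 18.3, 18.9, 21.9 and 36.6 CPM and Cx3cr1 rose from 77.9 to 113.4 CPM. Prtn3 went down from 113.2 CPM (107.2 to 119.5) to 94.0 CPM (87.6 to 100.7), although the Csf1r ratio by Prtn3 was near 1 in another draw. Over cells with 0, 1, 2 and 3 or more Csf2rb counts (2107, 1308, 580 and 317 cells), Prtn3 went up, at 88.8, 117.7, 130.2 and 156.8 CPM. Ly6c2 did as well, at 33.0, 41.8, 48.6 and 58.0 CPM, and Ms4a7 was at 26.5, 21.2, 14.7 and 20.2 CPM. Csf1r itself was at 141.3 CPM in cells with no Csf2rb count and at 163.7 CPM with 3 or more. Cells high in Csf2rb were therefore not low in Csf1r.

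**Figure D5:**
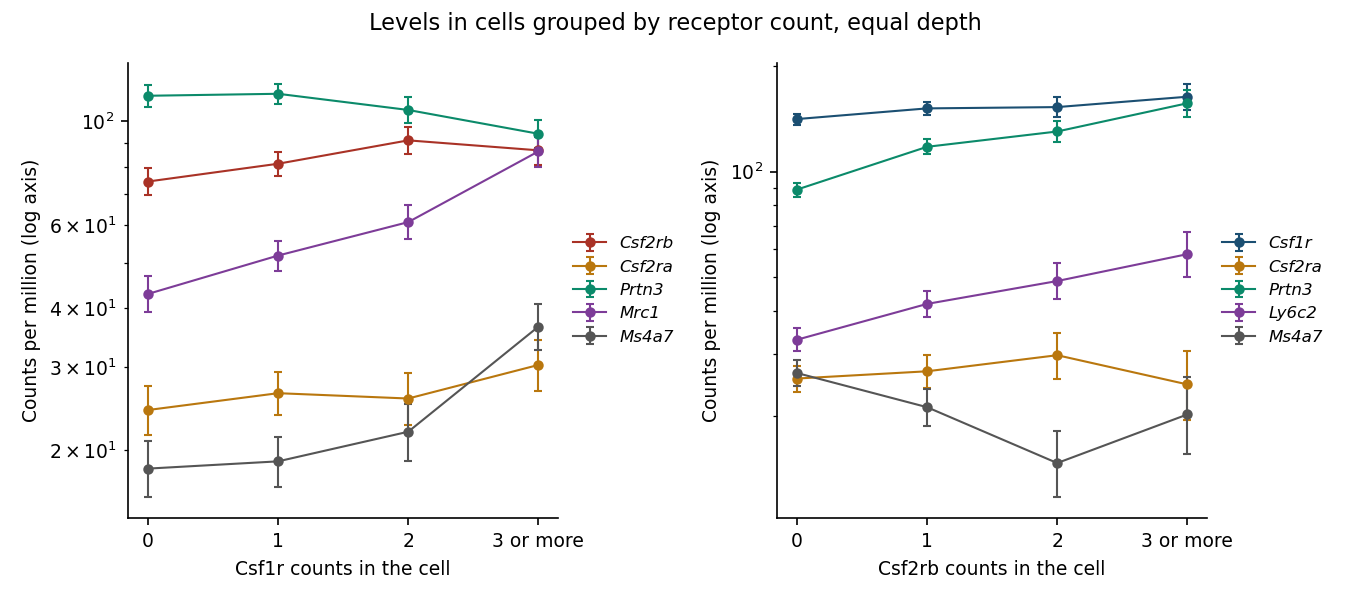
Levels (CPM, log axis) in thinned cells grouped by their Csf1r count (left) or Csf2rb count (right), with 95% Poisson intervals. Mrc1 and Ms4a7 are higher and Prtn3 lower at 3 or more Csf1r counts, and Prtn3 and Ly6c2 are higher at 3 or more Csf2rb counts.

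Of 9 other ligands and receptors of these families, 6 had a row and 2 of these were at 10 CPM or more, a share close to the 33.2% of all genes. Il3ra, the IL-3 receptor alpha chain, had 13.7 CPM and Sdc1, a surface proteoglycan, 12.3 CPM. The ligands of KIT and FLT3, Kitl (3.69 CPM) and Flt3l (3.87 CPM), were near the level of Csf1. Il34, the second ligand of CSF1R, was at 0.0374 CPM (0.0137 to 0.0814). Il3, Il5 and Il5ra had no row. Of the 2 list genes at 10 CPM or more, Il3ra reached 1.5-fold in cluster 7, at 20.6 CPM against 13.1 CPM in other cells. Its log2 ratio of 0.62 was just past that limit, and Sdc1 had 0.36. In that cluster 2.54% of genes at 10 CPM or more were that much higher.

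Of 24 genes of proximal CSF1R signalling, 19 were at 10 CPM or more, where 33.2% of all genes were, with a list median of 37.0 CPM. Ptpn6, a phosphatase that dampens the receptor, had 288.0 CPM, the adaptor Grb2 141.3 CPM, and the kinases Akt1 and Mapk3 92.4 and 90.4 CPM. The Src family kinases Src (0.368 CPM) and Fgr (0.730 CPM) were scarce beside Lyn (69.6 CPM). In cluster 8, 6 of the 19 were at least 1.5-fold higher (Gab2, Cbl, Lyn, Fyn, Plcg2 and Inpp5d), where 20.4% of genes were. In clusters 5 and 6, 7 of 19 were that much lower in each, where 37% and 28.7% of genes were.

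Of the 12 JAK and STAT genes of the GM-CSF, IL-3 and G-CSF receptors, 6 were at 10 CPM or more, beside 33.2% of all genes, with a list median of 9.32 CPM. Jak1 had 62.6 CPM, Stat3 33.1 and Pim1 17.3. Jak2, the kinase bound to the beta chain, had 4.87 CPM and Stat5b 12.7 CPM. Cish (0.0561 CPM) and Socs2 (0.0873 CPM), well known STAT5 targets, were near 0. Socs1 (1.65 CPM), Socs3 (4.71 CPM) and Pim1 of the same list were higher, and STAT5 activity was not tested. Of the 6 genes for cleavage of the CSF1R and CSF1 ectodomains, 4 were at 10 CPM or more, led by the protease Adam17 (33.2 CPM).

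Of 11 transcription factors known to act on Csf1r or in the CSF1 response, 10 were at 10 CPM or more, beside the same 33.2% of all genes. Spi1 had 221.5 CPM, Cebpb 180.5, Irf8 114.3 and Maf 99.3. Egr2, an early gene of CSF1 signalling, had 0.118 CPM beside Egr1 at 11.4 CPM. Over thinned cells from 0 to 3 or more Csf1r counts, Spi1 was at 216.3 (207.9 to 224.9) and 235.0 CPM (224.8 to 245.6). In cluster 3, where Csf1r was high, Maf was at 166.8 against 88.1 CPM in other cells. In cluster 7, where Csf1r was as high, Maf was at 83.2 against 100.6 CPM.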

How the data were processed

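Single-cell RNA-seq was deposited as 1 matrix with gene symbols and barcodes. It gives counts in whole numbers for each gene in each barcode, written by PISA 0.12 per the file headers and not normalized. Cell Ranger and mm10 are named without a role in the submitters' processing notes. Whether the deposited counts are of molecules or reads, the strand setting and the annotation are not known from any source used here, and counts of reads would make the intervals too narrow. No column of values stands for a sample, and 0 columns were left unmapped.

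Cells were kept from 500 genes upwards and up to 15% of mitochondrial counts. Doublets were not called and stay in. An alternative left out the 338 deepest cells. Levels are counts summed over cells per 1000000 (CPM) with exact Poisson intervals, also divided by the exon length in GENCODE M21. Shares have Clopper-Pearson intervals and ratios of levels exact conditional intervals, all at 95%. For equal depth, cells were thinned without replacement to 10000 counts (seed 1). Clusters came from 2000 variable genes, leaving out 128 member and list genes, with 30 components, 15 neighbours and Leiden resolution 0.5 (leidenalg 0.10.2, igraph 0.11.9, scikit-learn 1.9.0). Ratios in clusters had 1 CPM added. Scripts ran in Python 3.11.15 with numpy 2.4.6 and scipy 1.17.1, and were tested on simulated data.

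With 1 sample there is no replicate and no test. The members, gene lists and the 7 genes used to split cells were chosen with earlier results of these data known. Named genes are all members with a row, the highest 2 to 4 of each list with those lacking a row, and the 3 genes most alike each member at 10 CPM or more. Some genes that this covers are not reported here. Other list genes, such as Src, Fgr, Lyn, Jak2, Stat5b, Cish, Socs2, Egr1 and Egr2, and the low marker genes, were named after their values were seen. Alternatives were other cell filters, denominators, averages, thresholds, thinning depths, draws, resolutions and pseudocounts. Ratios for these splits within quintiles of depth, at 20000 counts and in another draw were added after the data were seen. Promoters are from RefSeq on GRCm38.p6, transcripts and coordinates from GENCODE M21 on GRCm38.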

Additional observations from a re-analysis of the deposited data

How the results depend on the processing

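Of 226 alternatives over all results, 150 stayed within the counting interval of the value reported (for the count of members, within 1.5 times) and 3 turned the sign of a ratio whose interval was clear of 1. The 3 turned ratios were small, namely Csf1r by Prtn3 (log2 0.087 at 1900 counts per cell and 0.0080 in another draw) and Csf2rb by Ms4a7 (log2 0.065 at 5000 counts). The share of cells with Csf1r was 23.0% at 1900 counts, 49.8% at 5000, 91.5% at 20000, 71.5% in another draw and 41.3% at 2 or more counts. The share with both Csf1 and Csf1r was 0.164%, 0.576% and 4.02% at those depths, since more counts per cell detect more genes. The log2 ratio of Csf1r in cells with over without Csf1 was 0.65 at 1900 counts, and the cause was not tested. For Csf1r, the log2 ratio of the cells closest to cluster 3 was 0.31 at resolution 0.3, and of those closest to cluster 2 was -0.063 at resolution 1.0, where that cluster lost cells. The cluster closest to cluster 7 (722 cells) held 1447 cells at resolution 0.3. Its log2 ratios were 0.39 for Csf2rb and -0.22 for Csf2ra. With a threshold of 50 CPM, 2 members passed in place of 3. Leaving ribosomal protein, mitochondrial, Gm42418 and AY036118 counts out of the denominator raised all levels 1.65 times. Of 138 alternatives for log2 ratios, 119 had the sign reported. Those with another pseudocount could not turn the sign, and the rest were taken from the same cells. No paired analysis was possible because there is 1 matrix, whose barcodes name no library, and no test was made. Whether both labelled libraries gave counts to it is not known. Depth limits Csf3 (2 counts) and Flt3 (22) most, then Csf1, Csf3r and Csf2rb2 with 449 to 728 counts in all.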

Other observations

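Of all Csf1 counts, 56.4% came from 253 cells with exactly 1. Cells with more were picked out after their values were seen. Cells with 3 or more Csf1 counts numbered 26, 0.385% of those kept, and held 24.5% of all Csf1 counts. Their median depth was 50686 counts, and all 26 also had Csf1r and Csf2rb, at 145.4 CPM and 84.9 CPM, near the levels of cells without Csf1 (145.5 and 82.3 CPM). A cell of 30154 counts had 9 of Csf1 and 4 of Csf1r, and another of 18528 counts had 6 of Csf1 and 2 of Csf1r. Rgs1, an inhibitor of chemokine receptor signalling, was counted in 13 of the 26 cells (exact interval 29.9% to 70.1%). In the deepest quintile it was counted in 28.5% of cells without Csf1 (25.9% to 31.1%), so the intervals overlap. It was in 32.4% (25.4% to 39.9%) of the 170 cells with Csf1 in that quintile. Of other genes looked at in this way, Ly6a, Gm2245 and Pdgfrl had higher shares in the 26 cells and Trp53cor1 and Saa3 lower, all with overlapping intervals. Of the 96 Rgs1 counts in the 26 cells, 37 came from 1 cell.

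In the deepest quintile, 4 of 1351 cells had no Csf1r count, at depths of 40871 to 52230 counts. Each had 179 to 302 counts of Tyrobp, and 3 of them had 6 to 12 counts of Csf2rb, so other receptor and macrophage transcripts were present. The fourth had 1 count of Csf2ra and none of the other members.

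Among the 448 cells with Csf3r, Saa3, an acute-phase gene, had 647 counts, 191 of them in 1 cell. Among the 20 cells with Flt3, 17 had Csf1r and 13 had Csf2rb. Cells with exactly 1 Flt3 count had a median depth of 31836 counts. In the second deepest quintile, which spans that depth, 95.6% of all cells had Csf1r and 85.5% had Csf2rb. In the cells with Flt3, 70 counts of Pdgfrl all came from 1 cell.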
